A study of Mus musculus with 5 samples.

Results

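The lung of mice given particulate matter, ovalbumin and a chitinase-1 inhibitor (PM10/OVA/CPX) was compared with the lung of mice given particulate matter alone (PM10), by RNA sequencing of whole lung. These are 2 of the 5 libraries of the series, 1 for each group, and the rest of the series is an untreated control, a PM10/OVA group and a group with dexamethasone (Dex), a glucocorticoid, in place of CPX. All mice were female wild-type BALB/c, an inbred strain. PM10, inhalable airborne particles, was dripped into the nose 4 times within 2 weeks in each group except control. Ovalbumin (OVA), an egg protein used as an allergen, was injected into the abdomen and later given into the nose. The inhibitor, named only CPX in the labels, was given into the abdomen on 6 occasions during 3 weeks, and dexamethasone on 3 occasions in the final week. The animals were killed 2 days after their final challenge. No source used here gives the mice's ages, the doses, or whether a library is 1 animal or a pool. The 2 libraries compared differ in both OVA and CPX, so what each contributes cannot be told apart in this comparison, and the PM10/OVA and PM10/OVA/Dex values are printed beside it. Those comparisons share the PM10 library with it, so they are set side by side only. No group has a second library. No difference below has a replicate check or a p-value, and the 95% intervals cover counting error only.

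The PM10 library held 12038105 counts and the PM10/OVA/CPX library 12612578, within the 11993222 to 16929068 of the series. Levels are CPM, read counts after scaling to a common total. A single count was worth 0.0828 CPM with PM10 and 0.0798 with PM10/OVA/CPX, and 3 counts, the floor used for a library at 0, were worth 0.249 and 0.240. Of 23183 gene symbols, 14305 averaged at least 1 CPM across the series and are called measured. The defining genes of whole lung were present in both libraries: surfactant gene Sftpc was at 12987 CPM with PM10 and 13412 with PM10/OVA/CPX, the alveolar type 1 gene Ager at 1586 and 1369, and the endothelial gene Pecam1 at 909 and 901. The club cell gene Scgb1a1 was at 14277 and 20501, the ciliated cell gene Foxj1 at 59.8 and 56.2, and the alveolar macrophage receptor gene Marco at 23.8 and 7.11. The housekeeping list had a median log2 ratio of -0.03 over its 20 measured genes.

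In an allergic airway, T helper 2 cells and innate lymphoid cells release IL-4, IL-5 and IL-13. IL-13 acts through the IL-4 receptor and STAT6 on the airway epithelium, which turns to mucous cells, on macrophages, which make arginase, RELM-alpha and Ym proteins, and on stromal cells, which make eotaxins that draw eosinophils. Interferons act on a separate set of antiviral genes, whose promoters often hold the interferon-stimulated response element. Chitinases cut chitin, a polymer of insects, fungi and crustaceans, and the chitinase-like lectins bind it or other sugars without cutting it.

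Promoter stretches of 5 genes are shown as examples of a STAT6-type motif beside genes that were higher and of the interferon response element beside genes that were lower. The sequences are RefSeq's, on GRCm38.p6, each of 100 bases. Capitals mark TTCNNNNGAA, the STAT6-type motif, in Retnla and Sprr2a3, and GAAANNGAAA or its reverse complement TTTCNNTTTC, the response element core, in Isg15, Oas3 and Ifit3. Both strands were searched, and no match of one motif lay in a stretch shown for the other.
Retnla, chr16:48842409-48842508, plus strand, bases -200 to -101 from the RefSeq start: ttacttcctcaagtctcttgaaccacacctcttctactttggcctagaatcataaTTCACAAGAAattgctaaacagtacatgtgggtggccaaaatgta
Sprr2a3, chr3:92285104-92285203, plus strand, bases -200 to -101: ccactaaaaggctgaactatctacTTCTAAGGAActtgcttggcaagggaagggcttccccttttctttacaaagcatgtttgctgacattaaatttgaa
Isg15, chr4:156200859-156200958, minus strand, bases -140 to -41: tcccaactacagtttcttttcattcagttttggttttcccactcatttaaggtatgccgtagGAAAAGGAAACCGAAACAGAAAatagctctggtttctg
Oas3, chr5:120777700-120777799, minus strand, bases -140 to -41: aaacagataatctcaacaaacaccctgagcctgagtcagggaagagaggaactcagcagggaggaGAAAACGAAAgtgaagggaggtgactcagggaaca
Ifit3, chr19:34583329-34583428, plus strand, bases -200 to -101: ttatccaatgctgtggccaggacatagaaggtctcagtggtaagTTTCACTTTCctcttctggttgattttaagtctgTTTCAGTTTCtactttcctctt
The 3 matches in Isg15 overlap one another, and Ifit3 holds 2 separate ones. Over the 250 bases before each start, the response element core was found in 978 of 32851 RefSeq windows (2.98%) and the STAT6-type motif in 1923 (5.85%). Among the 15 highest named genes of the comparison, 12 had a RefSeq window, of which 3 held the STAT6-type motif (Capn9, Retnla and Sprr2a3) and 0 the response element. Among the 15 lowest, 13 had a window, of which 0 held the STAT6-type motif and 4 the response element (Cxcl10, Isg15, Oas3 and Saa3). In the type I interferon list 9 of 20 genes with a window held the response element and 3 the STAT6-type motif, and Oas1a and Stat2 held both. In the mucous list 1 of 12 genes with a window held the STAT6-type motif (Capn9) and 1 the response element (Slc26a4), so each motif occurred in both lists. The percentages count windows, while the values of the lists and of the highest and lowest genes count genes with any matching window, so their units differ. These are matches of letters and not measured binding sites.

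Of the measured genes, 151 were higher by 2-fold or more in PM10/OVA/CPX than in PM10 (1.06% of those measured) and 268 were at least 2-fold lower (1.87%), on log2(CPM + 1), a scale that understates differences of low genes. The interval of every one of these genes lay clear of equal levels. At 8-fold or more the order turned, with 19 genes higher and 2 lower. The median log2 ratio over all measured genes was -0.01, and 6959 of the 14305 had a ratio above 0, the base for the counts of signs below. For PM10/OVA against the same PM10 library the counts were 99 higher (0.692%) and 182 lower (1.27%), and for PM10/OVA/Dex they were 138 (0.965%) and 336 (2.35%). Across 14221 genes with a known transcript length, the log2 ratio ran against length (Spearman's rho -0.35), as it did for PM10/OVA (rho -0.33). The genes share their libraries, and the part of length in the results was not tested, although the counts were 120 higher and 261 lower after a length and GC trend was removed.

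**Figure D1:**
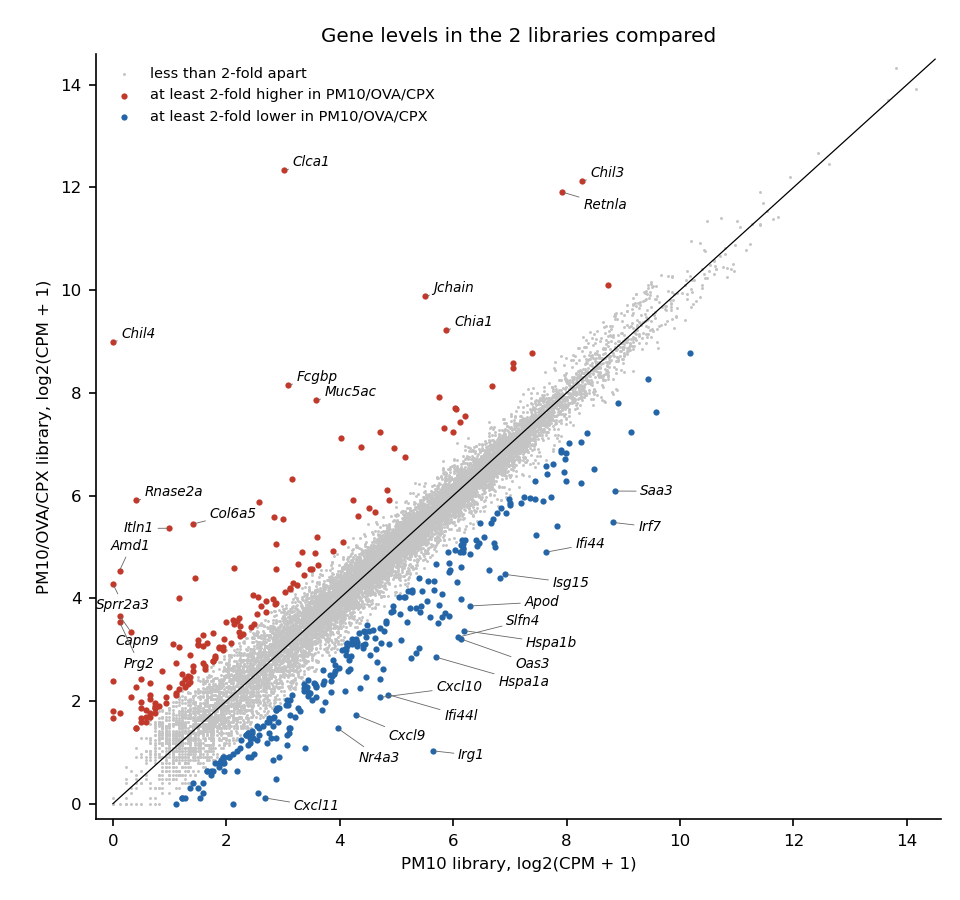
Each point is a measured gene, with its level in the PM10 library on the x axis and in the PM10/OVA/CPX library on the y axis, both as log2(CPM + 1). Red points are the 151 genes at least 2-fold higher and blue points the 268 at least 2-fold lower in PM10/OVA/CPX; the 15 highest and 15 lowest ratios are named. Clca1 and Chil4 stand farthest above the line of equal levels and Irg1 farthest below it.

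The mucous cell program held the highest ratio of all. Of its 20 measured genes, 16 were higher by 2-fold or more in PM10/OVA/CPX, 0 were lower, and the median log2 ratio was 1.78. Clca1, a secreted protein of mucous cells (chr3:145003817-145032776), was at 1.61 CPM in control, 7.12 with PM10, 313 with PM10/OVA, 5154 with PM10/OVA/CPX and 1632 with PM10/OVA/Dex. It was thus high in the 3 libraries that received OVA, and 724-fold higher in PM10/OVA/CPX than in PM10 (95% interval 586 to 905). Muc5ac, the gel-forming mucin of mucous cells (chr7:141788972-141819231), was at 4.09, 11.0, 30.6, 231 and 92.9 CPM in turn, 21.0-fold higher than in PM10 (17.6 to 25.2). Muc5b, the mucin that healthy airways also make, differed less, at 140 CPM in control, 131 with PM10, 169 with PM10/OVA, 359 with PM10/OVA/CPX and 277 with PM10/OVA/Dex. That is a 2.73-fold difference from PM10 (2.58 to 2.89).

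Proteins that are secreted with mucins were higher too. Fcgbp, a large protein of mucus gels, was at 19.8 CPM in control, 7.54 with PM10, 36.3 with PM10/OVA, 283 with PM10/OVA/CPX and 119 with PM10/OVA/Dex, so that PM10 alone had the lowest level and the ratio to it was 37.5. Itln1, an intelectin that binds microbial sugars, was at 0.750, 0.994, 3.91, 40.2 and 9.17 CPM. Tff2, a trefoil peptide, was 9.95-fold higher than in PM10 (7.95 to 79.1 CPM). Tff1, another trefoil peptide, was at 0 counts in control, PM10 and PM10/OVA, at 49 in PM10/OVA/CPX and at 9 in PM10/OVA/Dex, and stayed under the level for a measured gene. Capn9, a calpain protease of secretory epithelium, was at 1 count with PM10 and 146 with PM10/OVA/CPX, a 141-fold ratio whose interval of 24.9 to 5596 shows how little that single count fixes.

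The regulators of mucous differentiation were higher as well, at low levels. Spdef, the transcription factor that drives mucous cell maturation, was at 1.82 CPM with PM10 and 8.14 with PM10/OVA/CPX (4.47-fold, 2.80 to 7.44). Foxa3, which acts with it, was at 0.663 and 2.87 CPM (4.34-fold, 1.98 to 10.8). Ern2, the stress sensor of mucous cells' endoplasmic reticulum, was at 4 and 48 counts. Agr2, the disulfide isomerase that folds mucins, was at 3.40 CPM with PM10, 26.1 with PM10/OVA and 23.2 with PM10/OVA/CPX, so that it was highest with PM10/OVA. Among the enzymes and transporters, Slc26a4 (pendrin, an anion exchanger) was at 19.6 CPM with PM10, 90.7 with PM10/OVA and 121 with PM10/OVA/CPX, and Alox15, a lipoxygenase, at 6.13, 24.0 and 47.0. Galnt6 and Fut2, which add sugars to mucins, were within 2-fold of PM10, at 1.10-fold and 1.38-fold with intervals that include equal levels. Creb3l1 and Qsox1 were the other two measured genes of the list within 2-fold, at 1.22-fold and 1.46-fold.

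The PM10/OVA/CPX library had the highest level of the 5 in 16 of the 20 measured mucous genes, against 20.8% of all measured genes. Agr2 and Creb3l1 were highest with PM10/OVA, and Bpifb1 and Gp2 with PM10/OVA/Dex. The summed level of the list was 613 CPM in control, 872 with PM10, 1636 with PM10/OVA, 7930 with PM10/OVA/CPX and 3429 with PM10/OVA/Dex. Against PM10, PM10/OVA had 8 of 20 genes at least 2-fold higher (median log2 ratio 0.80) and PM10/OVA/Dex 13 of 20 (1.35). In whole lung, fewer cells of a type and less RNA per cell cannot be told apart. The list of club cells, from which mucous cells can arise, had a summed level of 21574 CPM with PM10 and 27517 with PM10/OVA/CPX. Scgb1a1, which made up most of that sum, had a log2 ratio of 0.52. The median of the list was -0.16, and 11 of its 18 genes had a ratio below 0. In the list 1 gene was at least 2-fold higher (Scgb3a1, 2.64-fold) and 3 lower, among them Cyp2a5 (3.35-fold) and Sult1d1 (2.49-fold). The part of the club cell list in the mucous values was not tested.

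**Figure D2:**
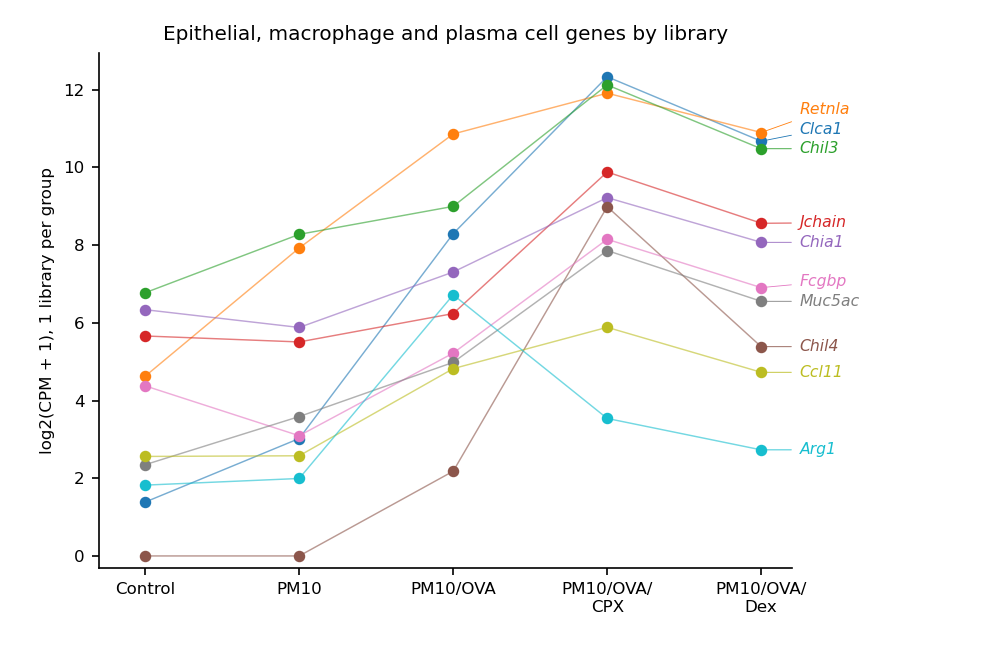
Levels of 10 genes as log2(CPM + 1) on the y axis in the 5 libraries on the x axis; each point is 1 library, and lines only join the points of a gene. Clca1, Chil4, Fcgbp, Muc5ac, Jchain, Chia1, Chil3, Retnla and Ccl11 are highest in PM10/OVA/CPX, while Arg1 is highest in PM10/OVA at 104 CPM.

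Chit1, the gene of chitotriosidase (chitinase 1), was at 0 counts in all 5 libraries, so its level was under the floor in each and no check of it is possible. A transcript count would not measure the inhibition of an enzyme in any case. Of the 6 measured chitinase and chitinase-like genes, 3 were past 2-fold on the higher side in PM10/OVA/CPX and 0 on the lower. Chia1, the acidic mammalian chitinase, an active enzyme (chr3:106113229-106132120), was at 79.9 CPM in control, 57.9 with PM10, 157 with PM10/OVA, 596 with PM10/OVA/CPX and 268 with PM10/OVA/Dex, or 10.3-fold higher than in PM10 (9.52 to 11.1). Its neighbours Chil3 (Ym1, chr3:106147554-106167564) and Chil4 (Ym2, chr3:106201490-106219507) encode lectins of macrophages and airway epithelium. Chil3 was at 108, 309, 510, 4455 and 1427 CPM in turn, 14.4-fold higher than in PM10 (13.9 to 14.9). Chil4 was at 0 counts in control and PM10, 56 with PM10/OVA, 6345 with PM10/OVA/CPX and 485 with PM10/OVA/Dex. Against the floor it was at least 2039-fold higher than in PM10, with a lower 95% limit of 1658. Chil3 and Chil4 are near-identical copies and how shared reads were assigned is unknown, so the split between them is uncertain.

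The remaining members of the family differed little. Chil1 (BRP-39), a lectin linked to tissue remodelling, was at 499 CPM in control, 2065 with PM10, 3067 with PM10/OVA, 2611 with PM10/OVA/CPX and 1533 with PM10/OVA/Dex. It was therefore already high in PM10 and 1.26-fold higher in PM10/OVA/CPX. Chid1 was at 30.7 and 31.1 CPM, and Ctbs, the lysosomal di-N-acetylchitobiase, at 22.6 and 20.1.

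The type 2 cytokines themselves gave few counts. Il13 had 0 counts in control, 2 with PM10, 7 with PM10/OVA, 15 with PM10/OVA/CPX and 2 with PM10/OVA/Dex, Il4 had 2 with PM10 and 7 with PM10/OVA/CPX, and Il5 had 1 and 4. At this depth a difference in Il4 or Il5 was not detectable, since both intervals include equal levels. The interval of the Il13 ratio was 1.68 to 65.2. Il33, an alarmin of epithelium and stroma, was at 133 CPM with PM10, 232 with PM10/OVA and 136 with PM10/OVA/CPX, so that PM10 and PM10/OVA/CPX differed by less than counting error (1.02-fold, 0.956 to 1.10). Receptors and signal carriers were close to PM10: Il4ra was at 149 and 169 CPM, Stat6 at 143 and 140, and Socs1 at 6.30 and 6.39. Of the 15 measured genes of the list, only Il5ra, the IL-5 receptor chain of eosinophils, passed 2-fold, at 1.49 CPM with PM10 and 4.63 with PM10/OVA/CPX. Il1rl1, the IL-33 receptor, was at 10.4 and 20.8 CPM, which is 0.94 on the log2(CPM + 1) scale of the counts and so under the threshold.

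Chemokines of the type 2 response differed more, and not all in the same direction. Ccl11 (eotaxin-1), the ligand of the eosinophil receptor Ccr3, was at 4.90 CPM in control, 4.97 with PM10, 27.3 with PM10/OVA, 58.0 with PM10/OVA/CPX and 25.5 with PM10/OVA/Dex. That is 11.7-fold higher than in PM10 (8.97 to 15.5), with PM10 and control at the same level. Ccl24 (eotaxin-2) was at 0.994 CPM with PM10, 9.78 with PM10/OVA and 3.83 with PM10/OVA/CPX, and Ccl8 at 29.9, 69.3 and 120. Ccl17 and Ccl22, both ligands of the T helper 2 receptor Ccr4, went apart: Ccl17 was 2.22-fold higher in PM10/OVA/CPX than in PM10 and Ccl22 was 1.88-fold lower. Ccl17 lies at the threshold and is under 2-fold when library totals or DESeq2 size factors set the scale, with a pseudocount of 5 and without the length and GC trend. Ccr4 itself was at 4.14 CPM with PM10 and 1.84 with PM10/OVA/CPX. In all, 5 of the 7 measured genes of the list were at least 2-fold higher with PM10/OVA/CPX, and 5 with PM10/OVA.

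All 11 measured eosinophil genes had a ratio above 0, with 6 at least 2-fold higher and a median log2 ratio of 1.18. This median was 0.58 with a pseudocount of 5 and 0.75 among genes averaging 5 CPM or more. The lowest ratio of the list, that of Cd300lf, was 0.01. Alox15 is also in the mucous list, and Siglecf, Ear1 and Ear2 are also in the resident alveolar macrophage list. The list is therefore not a separate count of eosinophils. Prg2, the major basic protein, had 1 count with PM10, 44 with PM10/OVA, 133 with PM10/OVA/CPX and 12 with PM10/OVA/Dex. Epx, the eosinophil peroxidase, had 0 counts with PM10, 1 with PM10/OVA and 13 with PM10/OVA/CPX. Ccr3 was at 6.38 CPM with PM10 and 32.4 with PM10/OVA/CPX (5.08-fold, 3.98 to 6.57). The ribonuclease genes Ear2 (102 and 279 CPM), Ear6 (0.580 and 3.35) and Rnase2a (0.331 and 58.9) belong to a family of similar copies, so their single ratios are uncertain. Rnase2a, the third highest gene of the ranking, was at 14.9 CPM with PM10/OVA and 34.3 with PM10/OVA/Dex.

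Mast cell genes had a median log2 ratio of -0.05 over 10 measured genes, and PM10/OVA/CPX was the highest library in 0 of them. Mcpt1 and Mcpt2, proteases of mucosal mast cells, had 30 and 27 counts in PM10/OVA/CPX against 1 and 0 in PM10. Their log2 ratios to PM10 were 1.65 and 1.66 with PM10/OVA/CPX, and 1.83 and 1.92 with PM10/OVA/Dex. The connective-tissue mast cell protease Mcpt4 had 19 counts with PM10 and 18 with PM10/OVA/CPX. Cpa3, which all mast cells make, had 20 and 21.

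Macrophage genes of the IL-4 and IL-13 program were divided. Retnla (RELM-alpha, whose promoter is shown above) was at 23.7 CPM in control, 242 with PM10, 1857 with PM10/OVA, 3846 with PM10/OVA/CPX and 1906 with PM10/OVA/Dex, 15.9-fold higher than in PM10 (15.3 to 16.5). Retnla is also in the list of alveolar type 2 cells, so in whole lung its level cannot be assigned to macrophages alone. Mgl2, a galactose-binding lectin of macrophages and dendritic cells, was at 17.7 CPM with PM10 and 59.3 with PM10/OVA/CPX, and Cd209e at 0.249 and 9.18. Arg1, arginase, was at 2.98 CPM with PM10, 104 with PM10/OVA, 10.6 with PM10/OVA/CPX and 5.63 with PM10/OVA/Dex. It was 3.56-fold higher than in PM10 (2.45 to 5.30), and PM10/OVA stood far above the other libraries. Mrc1, the mannose receptor, was at 238 and 302 CPM, and Clec7a, the beta-glucan receptor, at 512 and 403. Of the 20 measured genes, 6 were at least 2-fold higher and 1 was lower (Cd209g, at 24 and 2 counts).

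Genes of resident alveolar macrophages had a median log2 ratio of 0.23, with 3 of 20 at least 2-fold higher (Fabp1, Ear2 and Chil3). Fabp1 was under 2-fold with a pseudocount of 5 and without the length and GC trend. The 1 lower gene was Marco, the scavenger receptor that binds particles, at 2.02 CPM in control, 23.8 with PM10, 20.3 with PM10/OVA, 7.11 with PM10/OVA/CPX and 32.6 with PM10/OVA/Dex. Monocyte and interstitial macrophage genes leaned the other way, with 0 of 23 at least 2-fold higher and 4 lower: Fcgr1 (47.3 to 11.4 CPM), Ms4a4c (52.9 to 13.6), Ms4a6c (92.4 to 35.5) and Gpnmb (201 to 85.0).

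Of 10 measured plasma cell genes, 3 were higher by 2-fold or more, and 0 of 16 B cell genes were. Jchain, which joins the chains of secreted IgA and IgM (chr5:88519809-88527891), was at 49.6 CPM in control, 44.5 with PM10, 74.4 with PM10/OVA, 942 with PM10/OVA/CPX and 377 with PM10/OVA/Dex. The libraries with CPX or Dex were the high ones, and the PM10/OVA/CPX level was 21.2-fold that of PM10 (19.4 to 23.1). Mzb1, a chaperone of antibody assembly, was at 6.96 CPM with PM10, 10.9 with PM10/OVA and 45.8 with PM10/OVA/CPX. Eaf2 was the third plasma cell gene past 2-fold, with 7 and 30 counts. Its log2 ratio of 1.10 became 0.96 without the length and GC trend and 0.41 with a pseudocount of 5, and 2 of the 10 genes were then higher. Pigr, the epithelial receptor that carries J-chain antibodies into the airway, was at 424 CPM with PM10, 576 with PM10/OVA and 1093 with PM10/OVA/CPX. The B cell gene Ms4a1 (CD20) was at 27.4 and 32.7 CPM.

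T cell and NK cell genes were slightly lower, with medians of -0.28 over 17 genes and -0.37 over 13, and 1 gene past 2-fold in each. These were Il2ra, the IL-2 receptor alpha chain (9.77 CPM with PM10 and 3.83 with PM10/OVA/CPX), and Klrk1, the activating receptor NKG2D (17.5 and 7.90). Foxp3, the factor of regulatory T cells, had 48 counts with PM10 and 23 with PM10/OVA/CPX. On the log2(CPM + 1) scale its ratio was -0.81, so it is not among the genes past 2-fold.

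**Figure D3:**
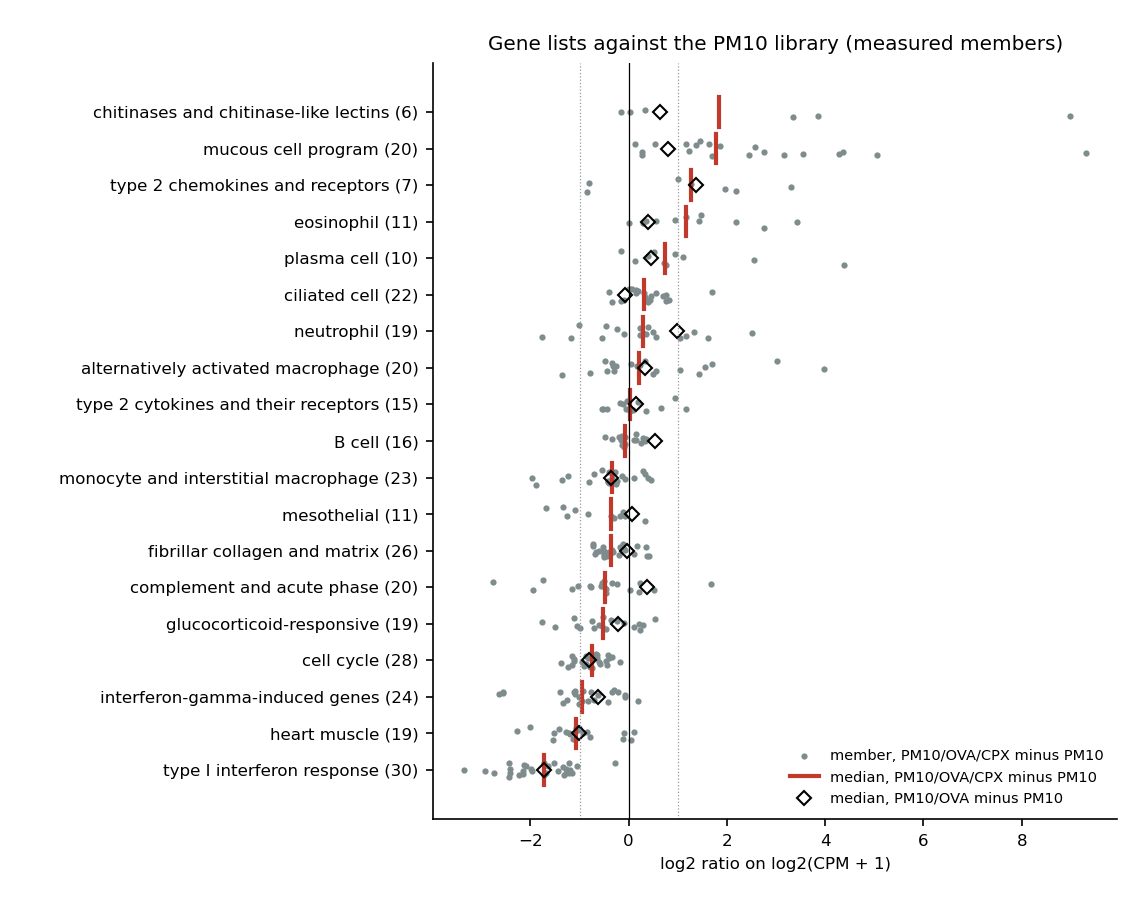
Log2 ratios to the PM10 library on log2(CPM + 1) (x axis) for 19 gene lists (y axis, measured members in brackets). Grey points are members in PM10/OVA/CPX, red bars their medians, open diamonds the medians of PM10/OVA against the same PM10 library, and dotted lines mark 2-fold. The mucous median lies at 1.78 and the type I interferon median at -1.72.

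Interferon-response genes were lower in PM10/OVA/CPX. From the type I interferon list 4 genes, Irf7, Oas3, Ifi44 and Isg15, were among the 15 lowest named genes. Ifi44l, which is outside that list, was among them too, at a log2 ratio of -2.73. Of 30 measured genes of the type I interferon list, 29 were at least 2-fold lower in PM10/OVA/CPX than in PM10 and 0 were higher, with a median log2 ratio of -1.72. Ifi35, named after its value was seen, was the single gene within 2-fold. Irf7, the factor that amplifies interferon production (chr7:141262706-141266481), was at 26.9 CPM in control, 452 with PM10, 42.6 with PM10/OVA, 43.5 with PM10/OVA/CPX and 23.9 with PM10/OVA/Dex. It was 10.4-fold lower than in PM10 (9.50 to 11.4), and PM10 alone stood apart from the other 4 libraries. Oas3, an antiviral sensor of double-stranded RNA, was at 6.17, 69.4, 15.5, 8.22 and 4.46 CPM in turn. Isg15, a ubiquitin-like protein, was at 15.6, 119, 29.3, 21.1 and 8.75 CPM. Both have the response element in the stretches shown above. Ifit3, chosen for its pair of elements, was at 191 CPM with PM10, 50.3 with PM10/OVA and 58.5 with PM10/OVA/CPX.

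In all 30 genes the PM10 library was the highest of the 5, against 18.3% of all measured genes. The summed level of the list was 1120 CPM in control, 4201 with PM10, 1343 with PM10/OVA, 1222 with PM10/OVA/CPX and 875 with PM10/OVA/Dex. PM10 is thus the library set apart, and PM10/OVA/CPX lay close to control and to PM10/OVA. PM10/OVA against PM10 had 26 of 30 genes at least 2-fold lower and PM10/OVA/Dex 29. Since each of these ratios uses the same single PM10 library, they do not check one another.

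**Figure D4:**
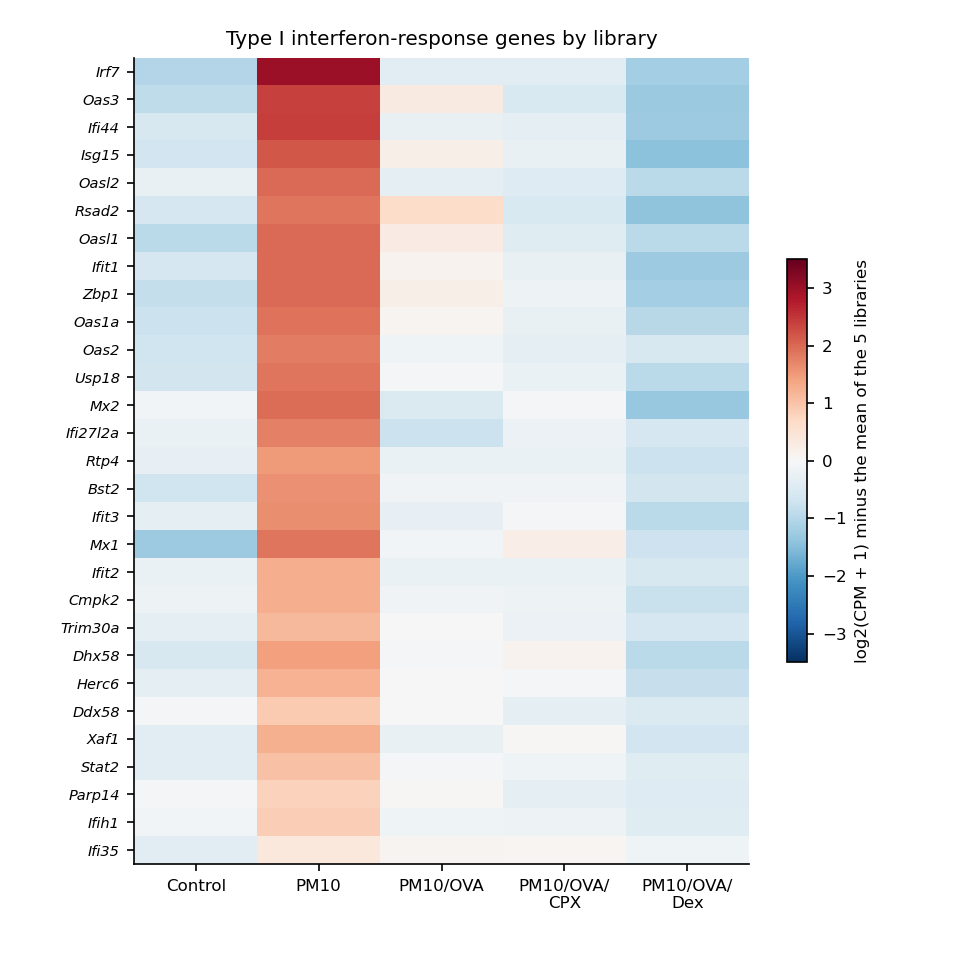
Rows are 29 of the 30 measured type I interferon-response genes, ordered by their ratio of PM10/OVA/CPX to PM10, and columns the 5 libraries. Colour gives log2(CPM + 1) minus the mean of the 5 libraries, and each gene shown has its highest value in the PM10 column.

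Genes induced by interferon-gamma were lower by a smaller margin, with 11 of 24 at least 2-fold lower and a median of -0.94. The chemokines of this list are ligands of CXCR3 on T helper 1 and cytotoxic cells and lie together on chromosome 5. Cxcl9 (chr5:92321347-92328079) was at 0.980 CPM in control, 18.4 with PM10, 15.5 with PM10/OVA, 2.32 with PM10/OVA/CPX and 1.43 with PM10/OVA/Dex. Cxcl10 (chr5:92346638-92348889) was at 1.27, 25.2, 14.3, 3.19 and 0.420 CPM, and Cxcl11 (chr5:92359544-92365485) had 2, 65, 50, 1 and 1 counts. The 3 chemokines were high in PM10 and PM10/OVA and low in the other 3 libraries, an order unlike that of Irf7. Gbp3 and Gbp5, interferon-inducible GTPases, were 2.68-fold and 2.60-fold lower. In MHC class I presentation, 16 of 17 genes had a ratio below 0 but 0 passed 2-fold, as for Tap1, the peptide transporter (114 and 59.6 CPM). The exception was H2-Q7, with 0 counts in control and PM10, 13 with PM10/OVA, 53 with PM10/OVA/CPX and 33 with PM10/OVA/Dex. It has close copies among the H2-Q genes, so its count is uncertain. Of 12 MHC class II genes, 0 passed 2-fold in either direction.

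The lowest ratio of the comparison was that of Irg1, now named Acod1, which makes the antimicrobial metabolite itaconate in activated macrophages (chr14:103046977-103056573). It was at 0.115 CPM in control, 49.0 with PM10, 49.0 with PM10/OVA, 1.04 with PM10/OVA/CPX and 0.925 with PM10/OVA/Dex. The ratio to PM10 was 47.2-fold (27.4 to 89.3), with PM10 and PM10/OVA high and the rest low. Slfn4, a myeloid Schlafen gene, was at 67.1 CPM with PM10, 25.9 with PM10/OVA and 8.46 with PM10/OVA/CPX. Several genes of inflamed epithelium and myeloid cells were highest in PM10/OVA and below PM10 in PM10/OVA/CPX. Saa3, an acute-phase apolipoprotein, was at 2.19, 463, 694, 67.0 and 44.7 CPM in the order used above. Timp1, an inhibitor of matrix metalloproteinases, was at 2.36, 32.6, 108, 8.14 and 8.16 CPM. Both had higher levels in the 2 libraries that received PM10 without an inhibitor or dexamethasone than in the rest.

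The complement and acute-phase list had 5 of 20 genes at least 2-fold lower and 1 higher. Cfb, complement factor B, was at 760 CPM with PM10, 389 with PM10/OVA and 197 with PM10/OVA/CPX (3.85-fold lower than in PM10, 3.69 to 4.03). C2, its counterpart in the classical pathway, was at 66.3, 31.9 and 19.0 CPM. Serpina3g, a protease inhibitor, was the 1 higher gene, at 64.3, 130 and 207 CPM.

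Neutrophil genes were mixed. S100a8 and S100a9, the calprotectin pair, were 3.11-fold and 2.54-fold higher in PM10/OVA/CPX than in PM10, and Retnlg was 5.92-fold higher. The S100a9 log2 ratio, 1.33, became 0.88 once the trend with transcript length and GC content was removed, which is under 2-fold. Clec4d and Clec4e, receptors for microbial glycolipids, were 2.36-fold and 3.70-fold lower. The list had 5 of 19 genes higher and 3 lower, with a median of 0.28, against 9 higher and 0 lower in PM10/OVA (median 0.98). With that trend removed, or with a pseudocount of 5, 3 genes of the list were higher. Among neutrophil chemokines and cytokines 0 of 15 were at least 2-fold higher and 2 lower, Cxcl2 (5.22 CPM with PM10, 18.5 with PM10/OVA and 1.84 with PM10/OVA/CPX) and Cxcl3 (20.3, 57.7 and 7.51). Cxcl5, another ligand of CXCR2, was at 14.4, 73.4 and 28.0 CPM. The median of this list, 0.23, became -0.14 once the same trend was removed. The sign of its median therefore depends on that step.

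Of 28 cell-cycle genes, 6 were at least 2-fold lower in PM10/OVA/CPX, 0 were higher and all 28 had a ratio below 0 (median -0.76). Top2a, the topoisomerase of dividing cells, was at 15.7 CPM in control, 70.8 with PM10, 29.3 with PM10/OVA, 32.1 with PM10/OVA/CPX and 17.7 with PM10/OVA/Dex, and Kif20a, a mitotic kinesin, was 3.01-fold lower than in PM10 (2.17 to 4.24). The PM10 library was the highest of the 5 in 26 of the 28 genes.

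The title of the series names fibrosis, and the genes of fibrillar collagen and matrix differed little. Of 26 such genes, 0 passed 2-fold and 21 had a ratio below 0, with a median of -0.37. Col1a2 was at 528 CPM in control, 775 with PM10, 575 with PM10/OVA, 508 with PM10/OVA/CPX and 467 with PM10/OVA/Dex, which is 1.52-fold lower than in PM10 (1.48 to 1.57). Fbn1, the microfibril protein fibrillin-1, was 1.58-fold lower, and the proteoglycan gene Bgn 1.55-fold lower. In the TGF-beta and myofibroblast list, 2 of 26 genes were at least 2-fold lower, Ctgf (328 and 147 CPM) and Inhba (13.3 and 4.71), and 0 were higher. In contrast, Col6a5, a chain of collagen VI, was among the highest genes, at 2.19 CPM in control, 1.66 with PM10, 17.6 with PM10/OVA, 42.6 with PM10/OVA/CPX and 14.3 with PM10/OVA/Dex (25.7-fold, 16.5 to 42.4). Metalloproteinases were split, with Mmp12, the macrophage elastase, at 132 CPM with PM10 and 383 with PM10/OVA/CPX and Mmp3, a stromal enzyme, at 25.3 and 9.74.

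The inducible heat-shock genes Hspa1a and Hspa1b were 8.14-fold and 7.67-fold lower in PM10/OVA/CPX than in PM10. Hspa1a was at 36.7 CPM in control, 50.7 with PM10, 6.31 with PM10/OVA, 6.23 with PM10/OVA/CPX and 136 with PM10/OVA/Dex, so that 2 of the OVA libraries were low and the Dex library high. The pair are near-identical copies, and their ratios may not be separate values. Nr4a3, an immediate-early nuclear receptor, was at 17.8, 14.7, 7.82, 1.76 and 19.0 CPM, lowest in PM10/OVA/CPX. Genes that respond to glucocorticoids were lower in part, with 4 of 19 at least 2-fold lower and 0 higher. Per1, which is also a clock gene, was at 212 CPM with PM10 and 62.0 with PM10/OVA/CPX, and Tsc22d3 (GILZ), a mediator of glucocorticoid action, at 481 and 223. Cxcl13, which draws B cells into lymphoid follicles, was at 52.4 CPM with PM10, 56.2 with PM10/OVA and 10.5 with PM10/OVA/CPX (5.01-fold lower than in PM10, 4.15 to 6.10).

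Genes of tissues that border the lung or can be carried along at dissection also differed. Of 19 heart muscle genes, 12 were at least 2-fold lower in PM10/OVA/CPX than in PM10 and 0 higher. Their summed level was 3903 CPM in control, 877 with PM10, 416 with PM10/OVA, 394 with PM10/OVA/CPX and 871 with PM10/OVA/Dex. Myh6, a cardiac myosin, was at 304 CPM with PM10 and 75.1 with PM10/OVA/CPX, and Nppa, the atrial natriuretic peptide, at 4.64 and 0.958. The cartilage list summed to 23.3 CPM with PM10 and 5.51 with PM10/OVA/CPX, and its defining gene Acan had 40 and 0 counts and Col2a1 23 and 1. The fat list summed to 651 and 548 CPM, with 4 of 16 genes at least 2-fold lower. Of 11 mesothelial genes 4 were at least 2-fold lower: Msln, Upk3b, Lrrn4 and Wt1. Upk3b was at 54.8 CPM in control, 41.7 with PM10, 40.7 with PM10/OVA, 12.2 with PM10/OVA/CPX and 39.3 with PM10/OVA/Dex, so that PM10/OVA/CPX alone was low. Krt5, of basal cells, had 14 counts with PM10 and 0 with PM10/OVA/CPX. It was the 1 gene at least 2-fold lower among the 8 measured of the basal and large airway list. The 1 higher gene was Bpifb1, also in the mucous list, at 65.3 and 205 CPM. The basal and large airway list summed to 241 CPM with PM10 and 353 with PM10/OVA/CPX. Its median log2 ratio was -0.19, however, and 6 of its 8 measured genes had a ratio below 0. Its other defining gene Bpifa1 was at 74.5 and 60.1 CPM. Smooth muscle genes summed to 1693 and 1896 CPM, and erythroid genes to 2260 and 3159. The heart muscle, cartilage, fat and mesothelial lists had lower sums in PM10/OVA/CPX than in PM10, and their part in the values of the genes at least 2-fold lower was not tested. None of the 15 lowest named genes belongs to these lists, but other genes at least 2-fold lower do, such as 12 of the 19 heart muscle genes. The absence from the 15 lowest is therefore no measure of that part.

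**Figure D5:**
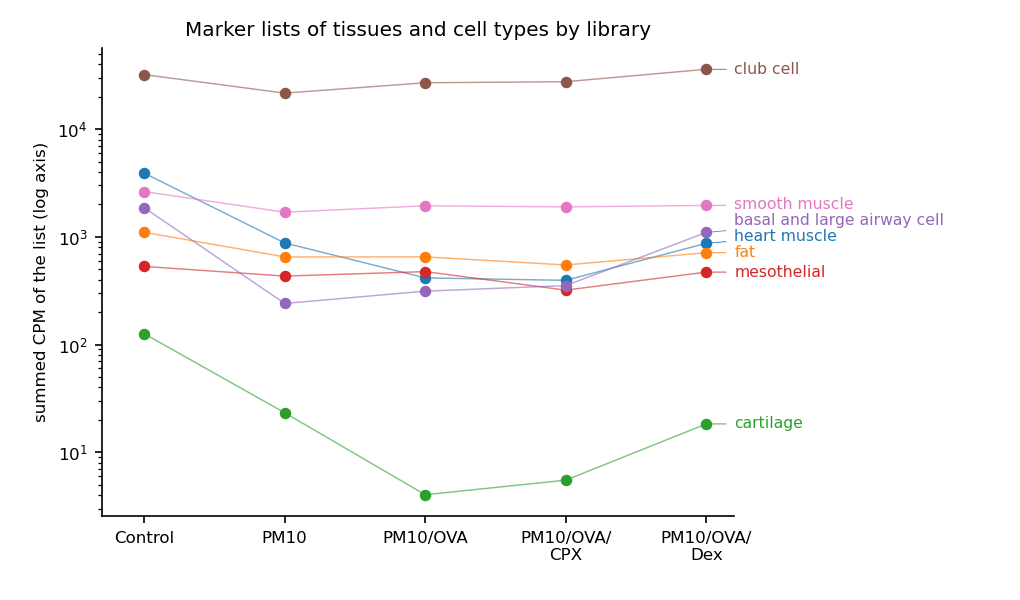
Summed CPM of 7 marker lists on a log y axis in the 5 libraries on the x axis; each point is 1 library and lines only join the points of a list. Heart muscle falls from 3903 CPM in control to 394 in PM10/OVA/CPX, cartilage is at 126 in control, 4.04 in PM10/OVA and 5.51 in PM10/OVA/CPX, and the mesothelial list is lowest in PM10/OVA/CPX at 320.

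Apod, a lipocalin that carries small lipids, was among the 15 lowest, at 22.3 CPM in control, 77.9 with PM10, 6.25 with PM10/OVA, 13.4 with PM10/OVA/CPX and 27.8 with PM10/OVA/Dex. Sprr2a3, a small proline-rich protein of stressed epithelium, was at 0 counts in control and PM10, 22 with PM10/OVA, 230 with PM10/OVA/CPX and 23 with PM10/OVA/Dex, at least 73.9-fold higher than in PM10. It belongs to a family of similar copies. Amd1, an enzyme of polyamine synthesis, had 1 count in each library except PM10/OVA/CPX, where it had 278. Its near-identical copy Amd2 had 1124 counts with PM10 and 739 with PM10/OVA/CPX. The sum of both was 93.2 CPM with PM10 and 81.2 with PM10/OVA/CPX, so the Amd1 ratio is uncertain and the summed level of the pair was not higher.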

How the data were processed

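Per the labels' protocols, Trizol was used to isolate the RNA, and 1.3 ug of it went into each library, made by the NEBNext Ultra II Directional protocol, in which strand is kept. Per the submitters' processing notes, TopHat and mm10 were used. The counting tool, its annotation, its strand setting and its handling of shared reads were not given in the sources used here, so near-identical, overlapping and antisense genes are uncertain. The authors deposited whole-number read counts per gene symbol, without normalization, in 1 file per library.

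The counts were scaled to CPM with edgeR's TMM method (version 4.0.16, R 4.3.3), whose factors for the 5 libraries were 0.989 to 1.02. Genes with a mean CPM of at least 1 were kept, and log2 ratios were taken with a pseudocount of 1. Counts of genes past 2-fold use these log2 ratios, so a low gene can have a CPM fold above 2 and not be counted. Folds are ratios of CPM with an exact conditional (Clopper-Pearson) 95% interval, which covers counting error only. Against 0 counts the fold is a lower bound at a floor of 3 counts. With 1 library per group no test between groups was possible. The interval code was tested on simulated data.

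Named genes are the 15 highest and 15 lowest ratios (predicted models, receptor segments and small RNAs left out), all members of the mucous, chitinase, type 2 and alternative macrophage lists, at most 5 members of each other list, by absolute ratio, and defining markers. Members and lists were chosen with earlier results of these data known. Medians and counts cover measured members. Coordinates are from GENCODE on GRCm38, the build mm10, and promoters from RefSeq on GRCm38.p6. Alternatives were other scalings (DESeq2 1.42.0 size factors, library totals, TMM over 2 libraries), pseudocounts, filters, and removal of a length and GC trend.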

Additional observations from a re-analysis of the deposited data

How the results depend on the processing

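The 151 higher genes became 236 with a pseudocount of 0.25, 53 with a pseudocount of 5 and 83 among genes averaging 5 CPM or more. The 268 lower genes became 121 with a pseudocount of 5. Under the other scalings, filters and the removal of the length and GC trend the counts ran from 120 to 175 higher and from 261 to 277 lower. Of 133 named genes past 2-fold, 81 were past it under every alternative that kept the gene. The filter of 5 CPM dropped some of them, such as Capn9 and Prg2. Another 52 were under 2-fold in at least 1 alternative, of which 42 only with a pseudocount of 5, and 0 of the 133 changed sign. The other 10 were Ccl17, Cenpf, Cfd, Col11a1, Eaf2, Fabp1, Myocd, Pdcd1lg2, Plin4 and S100a9, and all of them but Cfd and Myocd were under 2-fold with the length and GC trend removed. No paired analysis was possible because each group has 1 library, and for the same reason no library could be left out. The 2 groups differ in OVA and CPX together, and a difference between single lungs cannot be told apart from one between treatments. Depth limits genes with few counts, such as Il4, Il5, Epx and Chit1.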

Other observations

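Lipid mediator genes were mostly near PM10 in PM10/OVA/CPX, with a median log2 ratio of 0.00 over 20 genes. Besides Alox15, described with the mucous genes, Alox12e was 7.02-fold higher (7 counts in PM10 and 51 in PM10/OVA/CPX, interval 3.17 to 18.3). Ltc4s, which makes leukotriene C4, was at 5.63 CPM in PM10 and 10.7 in PM10/OVA/CPX, and Alox5, the first enzyme of leukotriene synthesis, at 17.7 and 35.0. Pla2g5, a secreted phospholipase, had 17 counts in PM10 and 1 in PM10/OVA/CPX.

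Ciliated cell genes had a median log2 ratio of 0.32 over 22 genes, 18 of them above 0. Pifo, a gene of primary and motile cilia, was the 1 gene past 2-fold, at 6.30 CPM in PM10, 9.08 in PM10/OVA and 22.6 in PM10/OVA/CPX. Cholesterol synthesis genes were above PM10 in 16 of 19 cases with 0 past 2-fold, as for Idi1 (86.4 and 127 CPM). Ccl20, a ligand of CCR6 on dendritic cells and lymphocytes, had 7 counts in PM10 and 39 in PM10/OVA/CPX.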
